A study of Mus musculus with 12 samples.

Results

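The genes described here are the 10 that set the pace of G1, the phase in which a cell decides whether to replicate its DNA. They comprise the D-type cyclins Ccnd1, Ccnd2 and Ccnd3, the E-type cyclins Ccne1 and Ccne2, the kinases Cdk4 and Cdk6, and the Cip/Kip inhibitors Cdkn1a, Cdkn1b and Cdkn1c. They were picked by gene name from a table of RNA-seq read counts, in which they are 10 of 55401 rows. All 10 were among the 25771 genes that passed the filter on low counts and were tested.

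The counts came from satellite cells, the Pax7-expressing stem cells of skeletal muscle, sorted from hind limb muscle of adult mice 3 to 4 months old. Mice of both genotypes were Cxcr4 FL/FL, that is homozygous for the floxed allele, and carried the fluorescent reporter Pax7-ZsGreen; WT mice had no cre, and Cxcr4 KO mice had Pax7-creERT2 in addition. All mice received tamoxifen by intraperitoneal injection at 80 mg/kg on 5 consecutive days, after which creERT2 deletes Cxcr4, the receptor for the chemokine Sdf1, in Pax7-expressing cells. The KO libraries differed from the WT libraries both in cre and in the deletion, and these cannot be told apart. ZsGreen-positive cells were either lysed fresh from the sort (quiescent, n = 4 WT and n = 4 KO libraries) or after overnight culture in growth medium (activated, n = 2 WT and n = 2 KO). The labels do not say whether the libraries of a group came from separate mice, so the tests measure the spread between libraries.

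In resting satellite cells, progress through G1 is held back by Cip/Kip proteins, which bind cyclin-kinase complexes. When a cell is stimulated, D-type cyclins accumulate, pair with Cdk4 or Cdk6 and begin to phosphorylate the retinoblastoma protein. E2F factors are then released and drive transcription of genes for DNA replication, cyclin E among them, and cyclin E with Cdk2 completes the step into S phase. Much of this control acts on protein stability and on complex formation, which RNA counts do not measure.

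The library totals ranged from 12775593 to 23717013 counts in the quiescent state and from 3172164 to 5427280 counts in the activated state. Cxcr4 itself measured 59.1 to 112 counts per 1000000 (CPM, scaled by TMM normalisation) in quiescent WT and 12.5 to 21.2 in quiescent KO, and 14.4 to 33.3 in activated WT and 5.39 to 13.7 in activated KO. In quiescent cells the genotypes did not overlap for Cxcr4, as the labels have it. In activated cells they lay close, at 14.45 CPM in WT replicate 2 and 13.69 CPM in KO replicate 2. As a percentage of counts before scaling, the activated genotypes overlapped, at 0.00104 to 0.003759% in WT and 0.0005851 to 0.001195% in KO. Pax7 was present in every library, at 181 to 482 CPM in the quiescent and 71.2 to 130 CPM in the activated libraries, and Myod1, the myogenic determination factor, at 813 to 3097 and 1260 to 1886 CPM. The 2 states also differed in ways other than culture. All 8 quiescent libraries held transcripts of the Y-linked gene Ddx3y at 289 to 570 CPM and at most 7.17 CPM of Xist, whereas the 4 activated libraries held 451 to 817 CPM of Xist and at most 2.28 CPM of Ddx3y. A ribosomal RNA gene, CT010467.1, took 0.295 to 0.807% of the counts in quiescent and 11.5 to 40.3% in activated libraries. The summed level of 6 mature muscle fibre genes was 232 to 819 CPM in quiescent and 5485 to 13460 CPM in activated libraries. That of 6 smooth muscle and pericyte genes was 1437 to 2631 and 181 to 343 CPM. Notch3 alone gave 366.5 to 997.2 CPM of the latter sum in quiescent and 9.353 to 24.67 CPM in activated libraries. No gene of these lists was at 0 throughout a group. In comparisons between the states, culture, sex, depth and these other transcripts cannot be told apart. All 10 genes lie on autosomes.

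A gene was called when its Benjamini-Hochberg adjusted p over all tested genes was below 0.05 in edgeR's quasi-likelihood test, its change exceeded 1 on the log2 scale, and its mean normalised count was above 10. Errors of log2 values are standard errors of that fit, and errors of levels are SDs over the libraries of a group. Where libraries of the states are said not to overlap, the share of all tested genes so separated is not given. Such statements describe the values only.

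Per kilobase of annotated exon, which puts genes of unlike length on a common scale, the inhibitor Cdkn1a was the most abundant of the 10 in every group. It measured 261 ± 41 CPM per kb in quiescent WT and 291 ± 44.2 in quiescent KO (n = 4 each), and 123 ± 32.5 in activated WT and 164 ± 35.5 in activated KO (n = 2 each). In quiescent WT cells it was followed by Cdkn1c at 48.5 ± 25.3, Cdkn1b at 32 ± 1.85, Cdk4 at 16.7 ± 3.67 and Ccnd1 at 15.1 ± 5.24 CPM per kb. Ccnd3 at 10 ± 1.92 and Ccnd2 at 8.47 ± 4.03 came next, and Ccne1 at 2.13 ± 0.569, Cdk6 at 1.25 ± 0.197 and Ccne2 at 1.18 ± 0.227 were lowest. The neighbouring pairs Cdkn1c and Cdkn1b, Cdk4 and Ccnd1, Ccnd1 and Ccnd3, Ccnd3 and Ccnd2, and Cdk6 and Ccne2 lay within 1 SD of each other, so their order is not resolved. Quiescent KO cells gave the same order. This order depends on the annotated exon lengths. In plain CPM the quiescent WT means were 87.8 for Ccnd3, 79.7 for Ccnd2 and 71.2 for Ccnd1. In activated WT cells the places after Cdkn1a went to Ccnd1 at 70.8 ± 7.86 and Cdk4 at 38.4 ± 0.4 CPM per kb, ahead of Cdkn1c at 10.9 ± 1.19 and Cdkn1b at 7.2 ± 0.381. Activated KO cells had Cdk4 at 35.1 ± 7.72 and Ccnd1 at 34.9 ± 4.74 in these places, which overlapped each other.

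**Figure D1:**
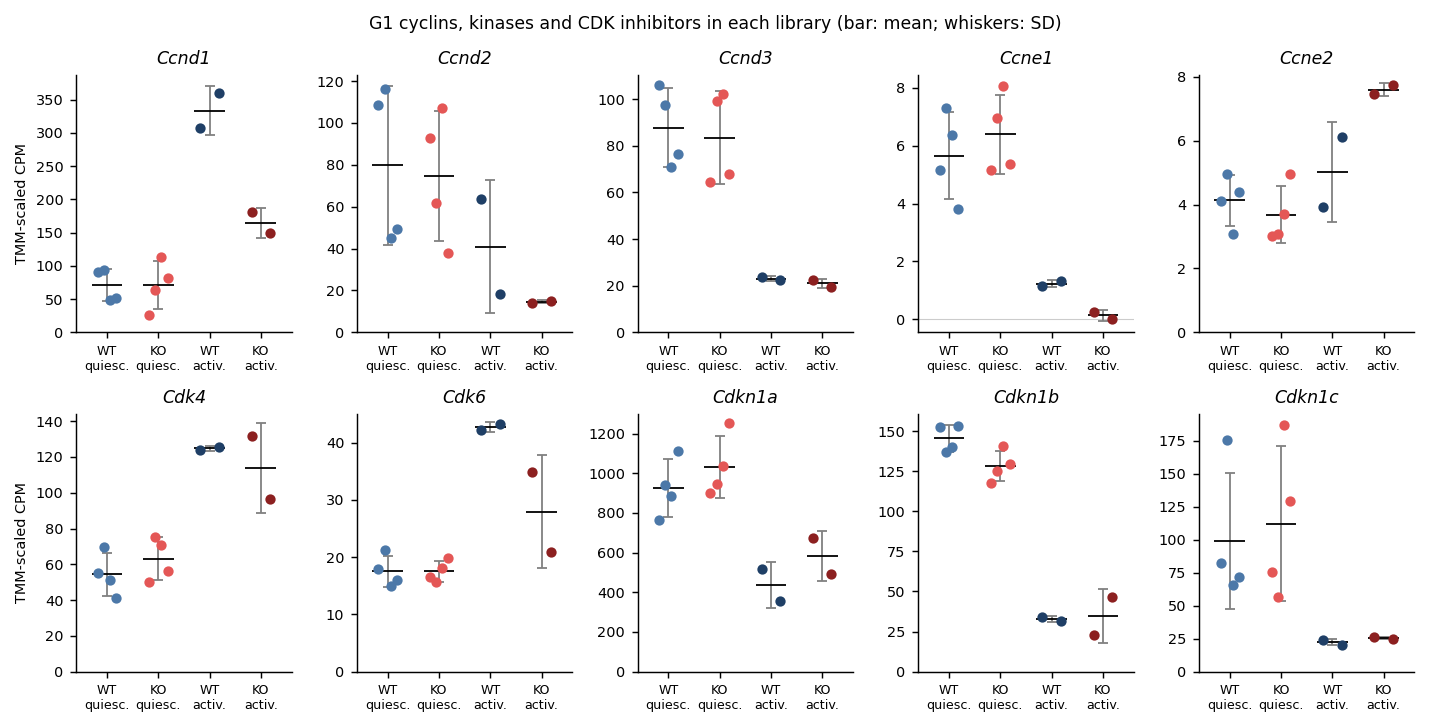
TMM-scaled CPM of each of the 10 genes in each of the 12 libraries, by genotype and state, with the mean (black bar) and SD (grey whiskers) of each group; each panel has its own linear axis from 0. Quiescent WT and KO points overlap in every panel, and all activated points lie outside the quiescent range for Ccnd1, Ccnd3, Ccne1, Cdk4, Cdkn1a, Cdkn1b and Cdkn1c. The share of all tested genes separated in this way is not given, so the list is a description only. Between the states, 26.2% of all tested genes were called in WT and 29.6% in KO.

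Among the D-type cyclins, Ccnd1 was the one that rose with activation in both genotypes. Ccnd1 (ENSMUSG00000070348; GRCm38 chromosome 7, 144929931 to 144939925, minus strand) measured 91.1, 94.0, 48.7 and 51.1 CPM in the 4 quiescent WT libraries and 26.3, 63.3, 113.7 and 81.2 CPM in the 4 quiescent KO libraries. In the activated state it measured 307 and 360 CPM in WT and 180 and 149 CPM in KO. All activated libraries were above all quiescent ones, and the WT pair was above the KO pair. Ccnd1 rose on activation 4.68-fold in WT (log2 change 2.23 ± 0.38, adjusted p = 0.000176) and 2.31-fold in KO (1.21 ± 0.39, adjusted p = 0.021). The KO call depended on single libraries: without KO quiescent replicate 1 or KO activated replicate 1 the gene was no longer called, with log2 changes between 0.95 and 1.54 over the 6 libraries left out in turn.

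Ccnd3 behaved in the opposite way. Ccnd3 (ENSMUSG00000034165; chromosome 17, 47505051 to 47599691, plus strand), the D-type cyclin most tied to differentiating muscle cells, measured 106.2, 97.7, 70.9 and 76.3 CPM in quiescent WT and 64.4, 99.1, 102.2 and 68.0 CPM in quiescent KO, against 23.7 and 22.3 in activated WT and 22.4 and 19.6 in activated KO. The states did not overlap, and the genotypes overlapped within each state. Ccnd3 fell by 1.93 ± 0.30 on the log2 scale in WT (adjusted p = 5.72e-05) and fell by 1.99 ± 0.30 in KO (adjusted p = 3.68e-05).

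Ccnd2 was the least even of the D-type cyclins. Ccnd2 (ENSMUSG00000000184; chromosome 6, 127125162 to 127152193, minus strand) measured 108.7, 116.2, 44.8 and 49.2 CPM in quiescent WT and 92.8, 61.6, 106.9 and 37.8 CPM in quiescent KO. The activated libraries gave 63.5 and 18.4 CPM in WT and 14.1 and 15.1 CPM in KO. Only WT activated replicate 1 of the activated libraries reached the quiescent range. Ccnd2 fell on activation by 2.36 ± 0.53 on the log2 scale in KO (adjusted p = 0.00187), while the change in WT was -0.93 ± 0.48 (adjusted p = 0.146) and became -2.04 and called once WT activated replicate 1 was left out. Within every group the libraries had the same order for Ccnd2, for smooth muscle and pericyte transcripts and for endothelial transcripts. The smooth muscle and pericyte sum of 6 genes (Myh11, Acta2, Rgs5, Kcnj8, Notch3 and Pdgfrb) was 2456, 2549, 1453 and 1658 CPM in quiescent WT, 1537, 1475, 2631 and 1437 CPM in quiescent KO, 343 and 234 CPM in activated WT and 181 and 271 CPM in activated KO. Notch3 alone gave 873 CPM of it in WT quiescent replicate 3 and 997 CPM in KO quiescent replicate 4. In quiescent KO, Notch3 was highest in replicate 4, where each other gene of this list was lowest. The sum is thus not a measure of these cell types alone. The endothelial sum of 6 genes (Pecam1, Cdh5, Kdr, Tek, Emcn and Cldn5) was 963, 967, 407 and 476 CPM in quiescent WT, 975, 369, 986 and 223 CPM in quiescent KO, 647 and 89.8 CPM in activated WT and 91.7 and 312 CPM in activated KO. WT activated replicate 1, high in Ccnd2, thus stood further above replicate 2 in the endothelial than in the pericyte sum. Rgs5 alone gave 223.5 and 197 CPM of the pericyte sum in replicates 1 and 2. Other genes of that list differed more, Pdgfrb at 37.4 and 4.38 CPM and Myh11 at 31.7 and 5.26 CPM, whereas Kcnj8 was lower in replicate 1, at 5.23 and 7.88 CPM. The sums therefore do not separate the cell types. The part of these cells in the Ccnd2 values was not tested. In such bulk samples, fewer cells of a type and less RNA per cell cannot be told apart.

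**Figure D2:**
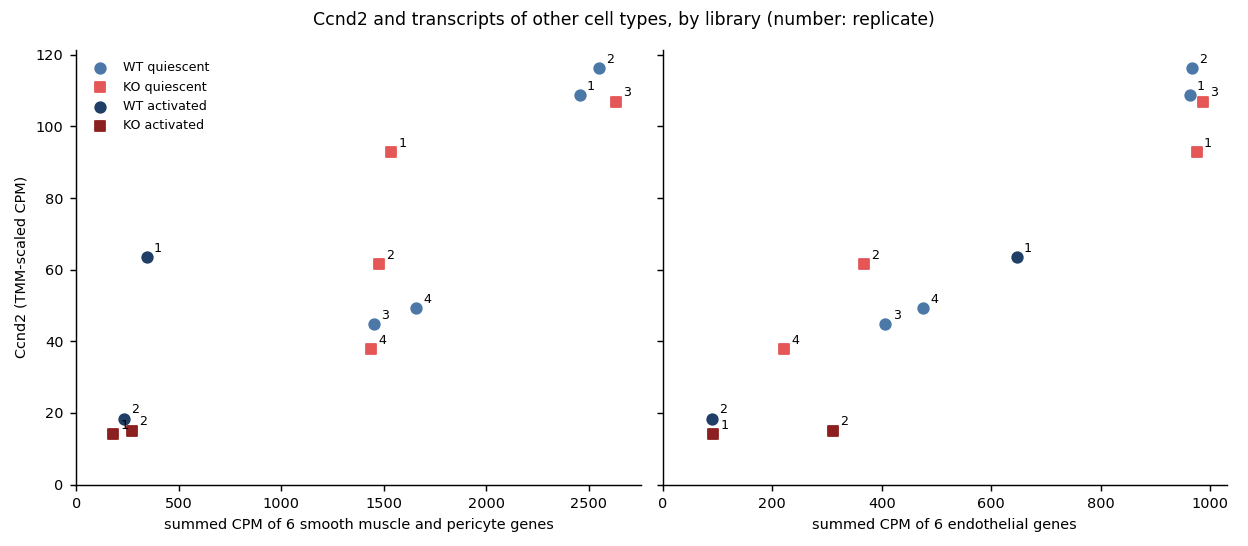
Ccnd2 CPM (vertical) against the summed CPM of 6 smooth muscle and pericyte genes (left) or 6 endothelial genes (right) in the 12 libraries, numbered by replicate; axes are linear from 0. The 3 libraries with the most Ccnd2 are the 3 with the largest pericyte sums, 2456 to 2631 CPM, and the 4 with the most have endothelial sums of 963 to 986 CPM.

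As a share of the D-type cyclin transcripts per kb, Ccnd1 made up 44.8 ± 0.89% in quiescent WT, within 43.8 to 46.0% in all 4 libraries, although the total varied. In quiescent KO the mean was 44.5%, with a range of 24.5 to 59.4% (SD 14.9, n = 4). The activated libraries stood at 87.3 and 94.4% in WT and 89.2 and 90.4% in KO. Ccnd3 took 30.9 ± 4.78% in quiescent WT and 29.9 ± 5.2% in quiescent KO, but 3.15 and 3.62% in activated WT and 6.02 and 6.31% in activated KO. The D-type cyclin pool thus passed from a mixture of 3 genes in the quiescent libraries to one made mostly of Ccnd1 in the activated ones, in both genotypes. The size of each share depends on the annotated exon lengths, 4709 bases for Ccnd1, 9409 for Ccnd2 and 8775 for Ccnd3. None of the 8 within-family shares computed for the 4 families passed between quiescent KO and WT in exact two-sided permutation tests over libraries. The lowest p was 0.114, for the share of Cdkn1b among the inhibitors (adjusted p = 0.914). The smallest p that 4 against 4 libraries can give is 0.0286, before adjustment over the 8 shares. A single share could thus not pass alone after adjustment, and the result does not show that the shares are alike.

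Of the E-type cyclins, which act late in G1, Ccne1 fell with activation in both genotypes and Ccne2 passed the test in neither. Ccne1 (ENSMUSG00000002068; chromosome 7, 38097984 to 38107534, minus strand) measured 5.17, 7.31, 6.36 and 3.81 CPM in quiescent WT and 5.17, 6.97, 8.06 and 5.38 CPM in quiescent KO. In the activated libraries it was down to 1.14 and 1.31 CPM in WT, which is 7 and 3 counts, and to 0.257 and 0 CPM in KO, which is 1 and 0 counts. No activated library reached the lowest quiescent one. The Ccne1 counts lay mostly in the quiescent libraries, 426 in WT and 509 in KO. With the count filter set on the activated libraries alone, Ccne1 was not tested. Its edgeR p-values, here and in later comparisons, are thus a description only. Taken from the pooled counts, the ratio of activated to quiescent was 0.215 (95% interval 0.102 to 0.398) in WT and 0.0188 (0.000474 to 0.105) in KO, with intervals that cover counting error only. In the edgeR fit Ccne1 fell in both genotypes (adjusted p = 0.0087 in WT and 5.03e-05 in KO), and the WT call was lost when either activated WT library was left out.

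Ccne2 (ENSMUSG00000028212; chromosome 4, 11191351 to 11204779, plus strand) was at a similar level in most libraries. It measured 4.12, 4.97, 3.07 and 4.38 CPM in quiescent WT, 3.03, 3.07, 3.70 and 4.96 CPM in quiescent KO, 3.92 and 6.13 CPM in activated WT, and 7.45 and 7.76 CPM in activated KO. The KO activated libraries lay above all others, and the WT activated libraries overlapped the quiescent range. Its log2 change on activation was 0.25 ± 0.46 in WT (adjusted p = 0.684) and 1.04 ± 0.43 in KO (adjusted p = 0.0683), neither of which passed, although the KO change was called without KO quiescent replicate 4. Of the E-type cyclin transcripts per kb, Ccne1 made up 63.6 ± 8.26% in quiescent WT and 69.2 ± 7.41% in quiescent KO, and 27.7 and 21.96% in activated WT and 4.33 and 0% in activated KO.

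The G1 kinases rose with Ccnd1 in WT cells. Cdk4 (ENSMUSG00000006728; chromosome 10, 127063534 to 127067920, plus strand) measured 55.2, 69.8, 51.4 and 40.9 CPM in quiescent WT and 50.1, 75.2, 71.0 and 56.1 CPM in quiescent KO, and 123.8 and 125.7 CPM in activated WT and 131.8 and 96.3 CPM in activated KO. Cdk6 (ENSMUSG00000040274; chromosome 5, 3341485 to 3531008, plus strand) measured 18.0, 21.2, 14.96 and 15.99 CPM in quiescent WT and 16.6, 15.7, 18.1 and 19.8 CPM in quiescent KO, and 42.2 and 43.4 CPM in activated WT and 34.9 and 21.0 CPM in activated KO. The activated libraries were above every quiescent library of the same genotype for both kinases. In WT, Cdk4 rose by 1.2 ± 0.26 on the log2 scale (adjusted p = 0.00131) and Cdk6 by 1.29 ± 0.27 (adjusted p = 0.00109). In KO the changes were 0.85 ± 0.26 for Cdk4 (adjusted p = 0.0149, under the limit on fold) and 0.67 ± 0.27 for Cdk6 (adjusted p = 0.0646), and both became called when KO activated replicate 2 was left out. The difference of these changes between the genotypes did not pass edgeR's test of the interaction (adjusted p = 1 for Cdk4 and 0.866 for Cdk6). Cdk4 made up between 91.7 and 95.4% of the kinase transcripts per kb in every library. This share rests on annotated exon lengths of 3249 bases for Cdk4 and 13989 bases for Cdk6.

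Promoter windows of 300 bases, from 250 before to 50 after a RefSeq start on GRCm38.p6, were at hand for 6 of the 10 genes (Ccnd3, Ccne1, Cdk4, Cdk6, Cdkn1a and Cdkn1b). They were searched on both strands for the E-box CACGTG, bound by Myc and related factors, for the GC box GGGCGG, bound by Sp1, and for the E2F-type motif TTTNNCGC. The E-box was added after the letters of these windows had been seen. The windows of the 2 kinases, which rose in WT, and of Ccne1 and Cdkn1b, which fell, are printed 5′ to 3′ along the gene's strand, with E-boxes and GC boxes (GGGCGG or its complement CCGCCC) in capitals.
Cdk4, chr10:127063285-127063584, plus strand: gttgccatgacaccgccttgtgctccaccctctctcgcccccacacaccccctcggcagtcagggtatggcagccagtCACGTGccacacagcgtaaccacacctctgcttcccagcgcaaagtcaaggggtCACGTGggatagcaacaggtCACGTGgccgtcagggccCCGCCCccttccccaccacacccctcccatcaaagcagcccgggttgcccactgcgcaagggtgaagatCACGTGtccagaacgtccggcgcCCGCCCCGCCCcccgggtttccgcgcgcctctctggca
Cdk6, chr5:3343643-3343942, plus strand: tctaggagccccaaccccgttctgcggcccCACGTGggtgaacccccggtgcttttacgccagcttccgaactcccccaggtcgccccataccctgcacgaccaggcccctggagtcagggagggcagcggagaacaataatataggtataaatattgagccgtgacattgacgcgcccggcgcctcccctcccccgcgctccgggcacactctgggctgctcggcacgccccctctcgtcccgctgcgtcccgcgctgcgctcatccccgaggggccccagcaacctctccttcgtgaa
Ccne1, chr7:38107441-38107740, minus strand: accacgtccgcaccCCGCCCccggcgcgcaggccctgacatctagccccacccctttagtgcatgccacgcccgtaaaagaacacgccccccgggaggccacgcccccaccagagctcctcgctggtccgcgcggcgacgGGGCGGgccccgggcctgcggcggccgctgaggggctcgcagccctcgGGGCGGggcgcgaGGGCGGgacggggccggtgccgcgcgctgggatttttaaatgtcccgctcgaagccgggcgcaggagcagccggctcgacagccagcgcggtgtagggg
Cdkn1b, chr6:134920151-134920450, plus strand: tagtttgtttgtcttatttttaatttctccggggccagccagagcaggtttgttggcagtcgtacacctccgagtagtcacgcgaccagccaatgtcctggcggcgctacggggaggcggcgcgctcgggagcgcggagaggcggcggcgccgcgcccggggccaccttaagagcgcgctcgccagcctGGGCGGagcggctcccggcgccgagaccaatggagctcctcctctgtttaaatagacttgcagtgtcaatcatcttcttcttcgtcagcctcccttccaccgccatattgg
Cdk4 held 4 E-boxes and 3 GC boxes, a pair of the latter overlapping, and Cdk6 held 1 E-box and no GC box. Ccne1 held 4 GC boxes and Cdkn1b held 1, with no E-box in either. The remaining windows, a pair each for Ccnd3 and Cdkn1a, held 2 GC boxes each apart from the upstream Cdkn1a window, which held none, and no E-box. The E2F-type motif was found in Cdk6 alone among these windows. Of all 32851 windows, 7.15% held the E-box, 35.7% the GC box and 5.17% the E2F-type motif, so a GC box is common, and a match describes letters, not a bound site.

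All 3 Cip/Kip inhibitors were lower in activated cells. Cdkn1b (p27; ENSMUSG00000003031; chromosome 6, 134920401 to 134925513, plus strand) was the steadiest gene of the set in quiescent cells, at 152.6, 136.8, 139.8 and 152.9 CPM in WT and 117.9, 125.2, 140.5 and 129.6 CPM in KO. It measured 33.98 and 31.5 CPM in activated WT and 22.9 and 46.8 CPM in activated KO, well below every quiescent library. Cdkn1b fell by 2.15 ± 0.29 on the log2 scale in WT (adjusted p = 1.39e-05) and fell by 1.88 ± 0.28 in KO (adjusted p = 4.17e-05).

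Cdkn1c (p57; ENSMUSG00000037664; chromosome 7, 143458339 to 143461050, minus strand), an imprinted gene expressed from the maternal allele, varied more. It measured 82.4, 175.5, 65.4 and 71.8 CPM in quiescent WT and 75.3, 56.7, 187.0 and 129.1 CPM in quiescent KO, against 24.01 and 20.6 CPM in activated WT and 26.2 and 25.1 CPM in activated KO. The quiescent libraries were spread over a range of values in both genotypes, and all of them exceeded the activated ones. Cdkn1c fell by 2.14 ± 0.47 on the log2 scale in WT (adjusted p = 0.00175) and fell by 2.13 ± 0.47 in KO (adjusted p = 0.0015).

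Cdkn1a (p21; ENSMUSG00000023067; chromosome 17, 29090976 to 29100727, plus strand), a target of p53 and of Myod1, fell the least of the 3 in WT. It measured 763, 941, 886 and 1114 CPM in quiescent WT, 899, 945, 1035 and 1253 CPM in quiescent KO, 519 and 355 CPM in activated WT and 671 and 493 CPM in activated KO. The states did not overlap in either genotype. Cdkn1a fell by 1.08 ± 0.28 on the log2 scale in WT (adjusted p = 0.00596). The change in KO was -0.83 ± 0.28 (adjusted p = 0.026), under the limit on fold. The WT call sat near that limit and was lost without WT quiescent replicate 4 or WT activated replicate 2.

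Setting the families against each other, the summed Cip/Kip level per kb was 6.71, 8.77, 13.5 and 15.4 times the summed D-type cyclin level in quiescent WT and 13.9, 10.3, 8.78 and 15.3 times in quiescent KO. The ratio was 2.21 and 1.45 in activated WT and 4.89 and 4.56 in activated KO. The activated libraries were below all quiescent ones, with the KO pair above the WT pair, and this ratio was not tested. With Cdkn1a left out, the ratio of Cdkn1b and Cdkn1c to the D-type cyclins was 0.258 and 0.21 in activated WT and 0.422 and 0.638 in activated KO, in the same order.

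**Figure D3:**
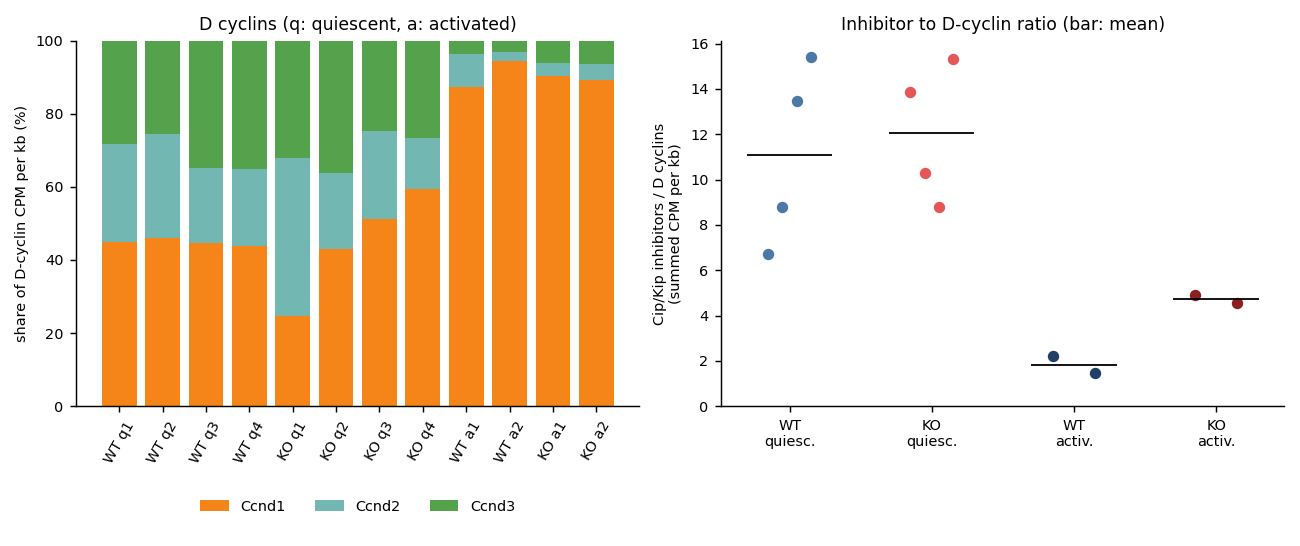
Left, share of Ccnd1, Ccnd2 and Ccnd3 in the D-type cyclin CPM per kb of each library (percent, stacked to 100; q quiescent, a activated). Right, ratio of the summed Cip/Kip inhibitors to the summed D-type cyclins per kb, 1 point per library with group means; the activated libraries lie between 1.45 and 4.89, below all quiescent ones at 6.71 to 15.4.

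Counted over the 10 genes, activation called 8 in WT, 3 of them higher (Ccnd1, Cdk4 and Cdk6) and 5 lower (Ccnd3, Ccne1, Cdkn1a, Cdkn1b and Cdkn1c). In KO it called 6, of which Ccnd1 was higher and Ccnd2, Ccnd3, Ccne1, Cdkn1b and Cdkn1c were lower. Over all genes tested the same rule called 26.2% in WT (9.65% higher and 16.5% lower) and 29.6% in KO (11.1% higher and 18.5% lower). The median log2 change of the 10 genes was -1.004 in WT and -1.35 in KO, beside -0.92 and -0.96 over all genes tested and -0.24 and -0.22 over genes with a mean log2 CPM above 1. The 2 activation comparisons rest on separate libraries of each genotype. Of 6 proliferation genes (Mki67, Top2a, Ccnb1, Cdk1, Mcm2 and Pcna), 1 was called higher and 2 lower in WT, and 1 higher and 4 lower in KO. The gene called higher was Mcm2 in both genotypes. Mcm2 measured 7.80 to 18.9 CPM in quiescent libraries, 48.2 and 52.6 CPM in activated WT and 41.9 and 15.5 CPM in activated KO. Mki67 measured 10.3 to 69.99 CPM in quiescent libraries, 18.3 and 7.01 CPM in activated WT and 0.771 and 3.88 CPM in activated KO, and Ccnb1 was at 0 in all 4 activated libraries.

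**Figure D4:**
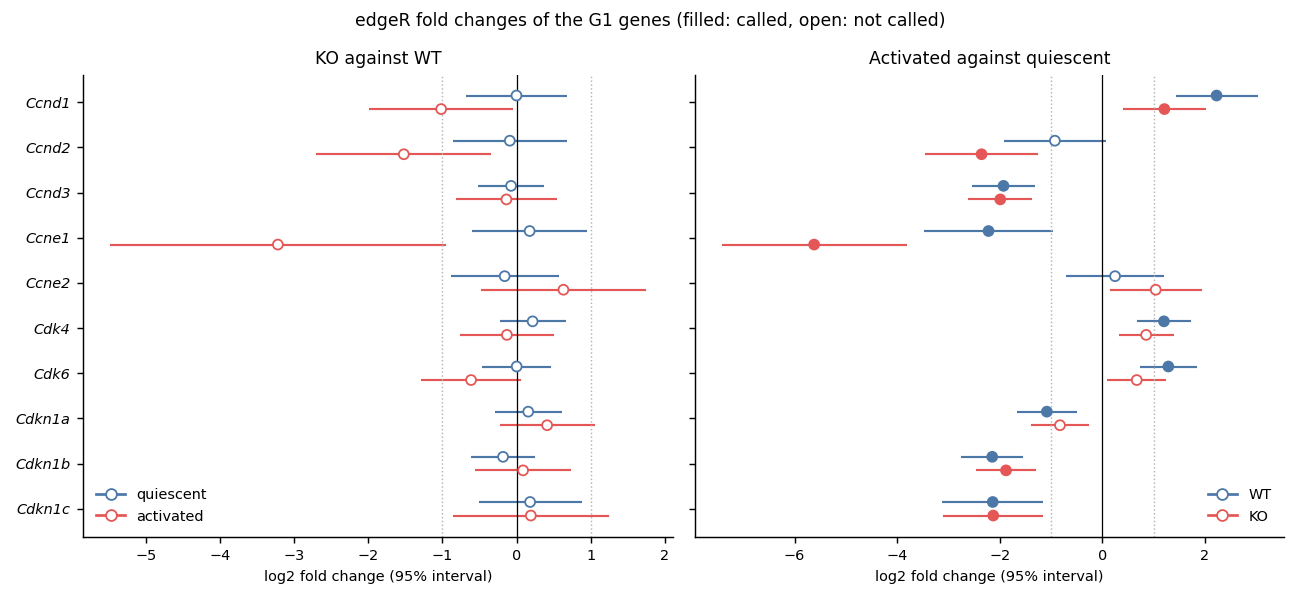
Log2 fold changes from edgeR, with 95% intervals derived from its F test, for KO against WT in each state (left) and activated against quiescent in each genotype (right). Filled circles are called and open circles are not, and dotted lines mark a change of 1. Ccne1 in activated KO rests on 1 count. No circle is filled on the left, and on the right 8 are filled for WT and 6 for KO.

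Between KO and WT, none of the 10 genes was called in quiescent cells. The log2 differences, KO against WT, ran from -0.18 ± 0.21 for Cdkn1b to 0.22 ± 0.21 for Cdk4, 5 above and 5 below 0 with a median of 0.00, and every adjusted p was 1. No member had an unadjusted p below 0.05, against 1.74% of all genes tested, and 0.0155% of all genes were called. The 95% intervals bound the differences: the widest interval toward lower values was that of Ccne2, down to 0.54-fold, and the widest toward higher values was that of Ccne1, up to 1.94-fold. For Cdk6 the interval was 0.726 to 1.38-fold, for Cdkn1b 0.653 to 1.19-fold and for Cdkn1a 0.816 to 1.53-fold. In this fit a 2-fold change in either direction lies outside the intervals of all 10 genes. The errors depend on the setting, larger for some genes and smaller for others. That of Ccnd2 was 0.455 with a robust quasi-likelihood fit and 0.241 with no filter on low counts, beside 0.368 here. That of Ccne1 was 0.436 with no filter, beside 0.372 here. Intervals were not computed for other settings, so this bound covers the main fit alone.

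In activated cells, again none of the 10 genes was called between KO and WT, where 0.0504% of all genes were. The pairs of libraries did not overlap for 6 members, with Ccnd1, Ccnd2, Ccne1 and Cdk6 lower and Ccne2 and Cdkn1c higher in KO. With 2 libraries a group this happened for 24.7% of all genes tested, 9.5% lower and 15.2% higher in KO. These genes were filtered over all 12 libraries, and many had few counts in the activated ones, where 10344 to 13411 genes had at least 10 counts. The share among genes well detected there was not computed, so the members cannot be called enriched. The fitted differences were -1.02 ± 0.47 for Ccnd1 (0.494-fold, 95% interval 0.252 to 0.968, unadjusted p = 0.0408, edgeR adjusted p = 0.585) and -1.52 ± 0.57 for Ccnd2 (0.348-fold, 0.154 to 0.789, unadjusted p = 0.0141, adjusted p = 0.439). Ccne1 rested on 1 count in the KO libraries against 10 in the WT libraries, a ratio of 0.102 with a counting interval of 0.00234 to 0.714 (edgeR unadjusted p = 0.00771, adjusted p = 0.372). These 3 are the members with an unadjusted p below 0.05, a level that 8.37% of all genes tested reached, with the same limit. With the count filter set on the activated libraries alone, Ccne1 was not tested. The Ccnd2 difference followed WT activated replicate 1, without which it was -0.43, and it passed the threshold when no filter on low counts was applied (adjusted p = 0.00983). Ccnd1, by contrast, kept a difference between -1.22 and -0.94 whichever activated library was left out. For the 3 inhibitors the differences were 0.41 ± 0.31 for Cdkn1a, 0.09 ± 0.31 for Cdkn1b and 0.19 ± 0.51 for Cdkn1c, with intervals that reach 2.08-, 1.66- and 2.38-fold.

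Whether the effect of the KO differed between the states was tested as an interaction, and none of the 10 genes was called. The edgeR test called 0 of all genes by this rule, and DESeq2 on the same libraries called 47 of 14388 genes and none of the members. In edgeR 1699 genes (6.59%) had an unadjusted p below 0.05, among them 2 members, Ccne1 (log2 difference of differences -3.40 ± 1.15, adjusted p = 0.581) and Ccnd2 (-1.43 ± 0.67, adjusted p = 0.749), and that of Ccnd2 was -0.34 without WT activated replicate 1. For Ccnd1 the value was -1.02 ± 0.57 (adjusted p = 0.818), so its rise on activation is not shown to differ between WT and KO.

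Of 35 other genes of the G1 and G1/S machinery, 34 were tested, and Skp2 did not pass the filter. Between KO and WT, edgeR called none in quiescent cells, where 0 had an unadjusted p below 0.05, and 1 in activated cells, Rb1, which encodes the retinoblastoma protein. In activated cells 8 of the 34 had an unadjusted p below 0.05, beside 8.37% of all genes tested, many of which had few counts there. Apart from Rb1 these were E2f1, E2f2, E2f7, Cdc25b, Cdc25c, Pkmyt1 and Ccna2, all with lower fitted values in KO, and the names are given after their values were seen. Several were near the floor in activated cells. WT and KO means were 0.683 and 0 CPM for E2f7, 1.18 and 0 for Cdc25c, 2.37 and 0.243 for Pkmyt1, and 2.37 and 0.827 for Ccna2. E2f2 varied widely in activated KO, at 31.8 ± 25.6 CPM. Rb1 measured 11.3 ± 0.736 CPM in activated WT and 56.5 ± 9.45 in activated KO (n = 2 each), a log2 difference of 2.33 ± 0.34 (edgeR adjusted p = 0.0175), and 14.3 ± 2.32 and 16.2 ± 2.33 CPM in quiescent WT and KO (n = 4 each). The Rb1 call was lost without WT activated replicate 1 (log2 difference 2.16, edgeR adjusted p = 0.307), without KO activated replicate 2 (2.09, adjusted p = 0.156) and with edgeR on the 4 activated libraries alone (2.27, adjusted p = 0.192). E2f1, the E2F factor best known as an activator of S-phase genes, measured 36.9 ± 1.41 CPM in activated WT and 8.53 ± 7.55 in activated KO, which did not pass (edgeR adjusted p = 0.143). The interaction of genotype and state did not pass for either gene (edgeR adjusted p = 0.0923 for Rb1 and 0.3 for E2f1).

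On activation, 6 of the 34 rose and 6 fell in WT, where 9.65% of all genes rose and 16.5% fell, and 8 rose and 9 fell in KO, where 11.1% of all genes rose and 18.5% fell. Among the called genes, the largest rises in WT were those of E2f2 (log2 change 2.71), E2f1 (2.54) and Cdc25a (2.21), a phosphatase that activates G1 kinases. In KO, again among called genes, they were those of Cdc25a (2.27), Rb1 (1.80) and Ccnh (1.52), the cyclin of the CDK-activating kinase. Pkmyt1, an inhibitory kinase acting at the G2/M step, fell by 2.50 on the log2 scale in WT and was called lower in KO, where it rested on 2 counts in the activated libraries (ratio to quiescent 0.0143, counting interval 0.00173 to 0.0518). Cdkn2d, an INK4 inhibitor of Cdk4 and Cdk6, fell by 2.49 in WT. E2f7, a repressor of the E2F family, fell by 3.45 in WT, and in activated KO it had no counts, as had Cdc25c. Against a floor of 3 counts over the group, these were at least 28.2- and 14.2-fold lower than in quiescent KO. By function, the kinase Cdk2 and the 3 subunits of the CDK-activating kinase gave 1 higher gene of 4 in WT and 3 higher and 1 lower in KO, the 10 E2F and DP factors 3 higher and 2 lower in WT and 2 higher and 1 lower in KO, the INK4 inhibitors gave 1 lower gene of 4 in WT and 2 in KO, the pocket proteins 1 lower of 3 in WT and 1 higher in KO, the 5 phosphatases and inhibitory kinases 1 higher and 2 lower in WT and 1 higher and 4 lower in KO, the 6 ubiquitin ligase subunits 1 higher in each, and the 2 S-phase cyclins none in WT and 1 lower in KO.

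**Figure D5:**
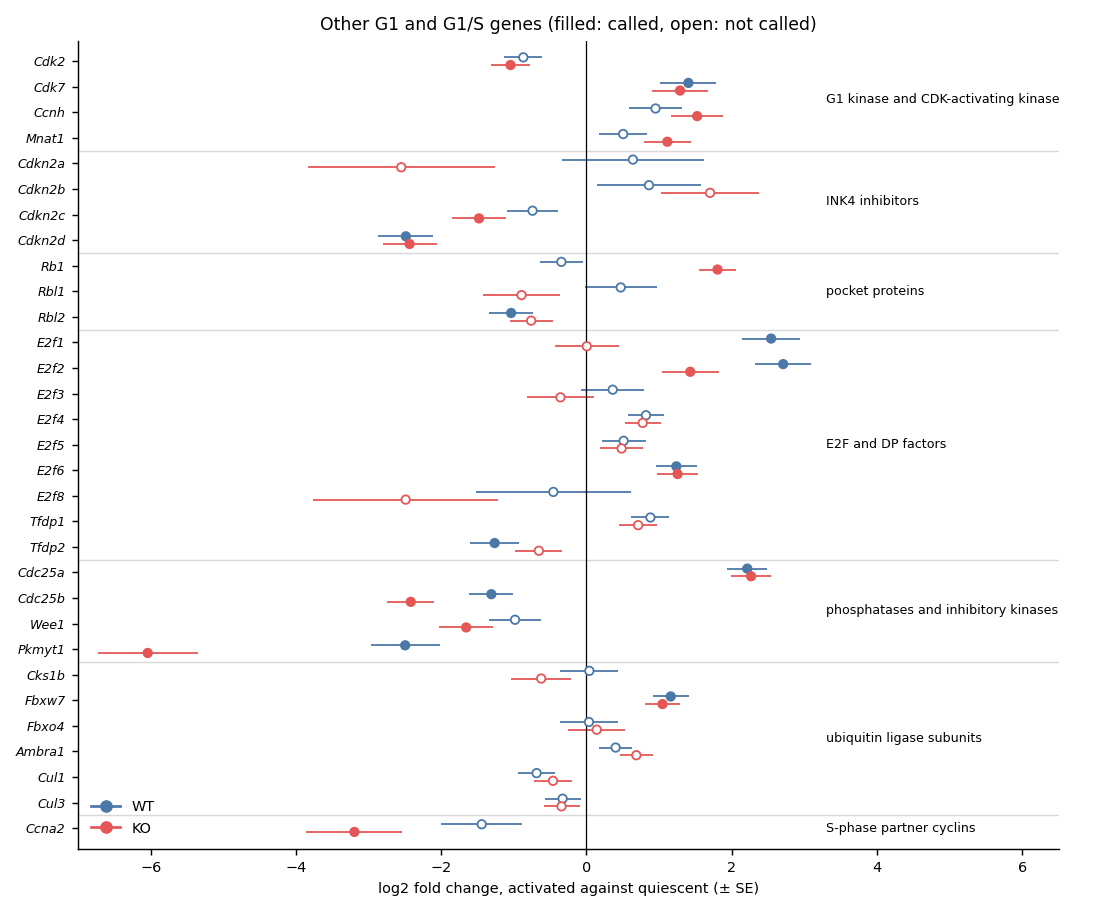
Log2 fold change on activation (edgeR, ± the error derived from its F test) in WT and KO for the other G1 and G1/S genes, grouped by function. Filled circles are called. E2f7, Cdc25c and Ccna1, which had no counts in at least 1 activated group, are not drawn, and Pkmyt1 in KO rests on 2 activated counts. Cdc25a lies above 2 in both genotypes. Rb1 is called for KO and not for WT, and E2f1 for WT and not for KO.

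The genes whose levels followed each member most closely over the 12 libraries were found from the root mean square difference between log2 CPM values centred on each gene's mean, among 12862 genes. For the inhibitors the closest were Tmsb4x (0.175) and Pid1 (0.185) to Cdkn1b, Syap1 (0.139) and Flna (0.15) to Cdkn1a, and Capn6 (0.344) and Pla2r1 (0.363) to Cdkn1c. For the kinases they were Tbca (0.107) and Gusb (0.169) to Cdk4 and Traf4 (0.159) and Actr2 (0.172) to Cdk6. Ccnd2 was nearest to Ptprm (0.173) and Cspg4 (0.288), Ccnd3 to Nectin2 (0.208) and Zdhhc8 (0.222), and Ccnd1, with less close neighbours, to Adam19 (0.377) and Taldo1 (0.398). Among the E-type cyclins Ccne2 was nearest to Pck2 (0.173) and Rap1a (0.191), and Ccne1 to Tmem35a (0.467) and Crip1 (0.494). The points share library depth and state, so these distances are a description only.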

How the data were processed

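RNA-seq libraries were made with the NEBNext Ultra kit from sorted satellite cells. Per the labels and the study's methods, the authors trimmed reads with Trim Galore 0.6.0, aligned them with STAR 2.7.2a to GRCm38.p6 (mm10), counted reads per gene with Rsubread on GENCODE gene models and deposited raw counts for 12 libraries; how multi-mapping reads and strand were handled is not given in the sources used here, so reads of overlapping or near-identical genes cannot be assigned with certainty. The authors also deposited 1 FPKM value per gene and group, which was not tested. Exon lengths and coordinates were read from another GENCODE release on the same assembly. Columns of the authors' own comparisons were not used.

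Here the counts of 25771 genes that passed filterByExpr were fitted with edgeR 4.0.16 (R 4.3.3), with TMM scaling and 1 coefficient for each of the 4 groups over all 12 libraries, and tested by quasi-likelihood with Benjamini-Hochberg adjustment, at the call limits given above. Within-family shares (CPM per kb of exon) were compared by exact two-sided permutation. The fit was tested on simulated data. Alternatives were DESeq2 1.42.0, other scalings, filters and sample sets, a replicate block and leaving out each library. Group depth sets the precision: 3 counts over a group correspond to 0.038 to 0.0391 CPM in quiescent and 0.357 to 0.363 CPM in activated cells. The genes named are the 10 members, at most 3 called genes each way in a comparison from the list of 35 others, the 2 closest patterns per member, and the library checks. Named in addition from the 35, after their values were seen, are those with an unadjusted p below 0.05 in activated KO against WT, whether called or not. Skp2 is named as not tested. Members and lists were chosen with earlier results of these data known.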

Additional observations from a re-analysis of the deposited data

Results flagged for a closer look

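In quiescent WT cells Cdkn1c measured 175.5 CPM in replicate 2, against 65.4 to 82.4 CPM in the other 3 libraries, which put this library apart from the rest of its group by Dixon's test at the 95% level. The same test was made for the 10 genes in both quiescent groups, 20 groups of 4 libraries in all, and chance alone picks out about 1 group in 20. The same library also had the highest Ccnd2, Mki67, smooth muscle and pericyte, and endothelial transcripts of quiescent WT, at 116.2, 51.1, 2549 and 967 CPM. Their part in the Cdkn1c value was not tested.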

How the results depend on the processing

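The members called on activation numbered 6 to 8 in WT and 5 to 8 in KO when each library was left out in turn, and 0 between KO and WT in either state and in the interaction. With no filter on low counts, 1 member (Ccnd2, lower) was called in activated KO against WT. Over the same settings the count for all genes in that comparison ran from 0 to 332 beside 13 here, and leaving out an activated library left 1 library in its group, taken to vary like the others. Whether the replicate numbers pair the libraries is not settled. Same-number correlations of deviations were 0.24, 0.165, -0.266 and 0.587 in quiescent and -0.071 in activated cells. By number, quiescent totals were 17532019, 12775593, 23058947 and 22785815 counts in WT and 17238391, 13075208, 22897189 and 23717013 in KO, alike within a number. A replicate block gave 8 members in WT (Ccnd2 in, Cdkn1a out), 6 in KO and 0 elsewhere. Ccne2 was also called on activation in KO with DESeq2 on all 12 libraries and with a mean count filter of 10. Signs changed for log2 values between -0.13 and 0.27; the cause was not tested. In quiescent KO against WT, Cdk6 was -0.001 with DESeq2 size factors and with edgeR on the compared groups alone, -0.004 with the mean count filter and -0.008 without the ribosomal RNA gene, and Ccnd1 was 0.031 with no filter and 0.005 with DESeq2 on the compared groups alone. With single libraries left out, Ccnd1 ran from -0.323 to 0.272, Ccnd2 from -0.314 to 0.161, Ccnd3 from -0.185 to 0.032, Cdk6 from -0.069 to 0.114 and Cdkn1c from -0.182 to 0.63. In activated KO against WT, Cdkn1b ran from -0.578 to 0.496 and Cdk4 from -0.39 to 0.022. In the interaction, Cdkn1c was -0.023 with DESeq2 size factors, -0.027 with no filter and -0.02 with DESeq2, and with single libraries left out it ran from -0.443 to 0.374, Ccnd3 from -0.188 to 0.046, Cdkn1a from -0.06 to 0.468 and Cdkn1b from -0.394 to 0.668. On activation in WT, Ccne2 ran from -0.017 to 0.645. Shares with coding length in place of exon length, chosen after seeing the data, again gave 0 of 8 that passed, under the same limit of the test. An alternative with RefSeq protein lengths was not run.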

Other observations

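The summed level of the D-type cyclins per kb of exon was 43.0, 43.5, 23.2 and 24.8 CPM per kb in quiescent WT, 22.8, 31.3, 47.1 and 29.0 in quiescent KO, 74.7 and 80.8 in activated WT and 42.3 and 35.4 in activated KO. The activated KO libraries thus lay inside the quiescent range and the activated WT libraries above it. The G1 kinases together measured 13.7 to 23.0 CPM per kb in quiescent WT, 16.6 to 24.3 in quiescent KO, 41.1 and 41.8 in activated WT and 43.1 and 31.1 in activated KO, above the quiescent range in every activated library. The E-type cyclins together stayed between 1.55 and 4.17 CPM per kb throughout, with the fall of Ccne1 leaving Ccne2 as the main E-type transcript in all 4 activated libraries. These sums were not tested.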
